A study of Mus musculus with 8 samples.

Results

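The genes of cytosolic nucleic acid sensing were followed in bone marrow-derived macrophages (BMDMs) that lacked Nudt21. The 8 genes were taken by symbol from the deposited gene tables (Ifih1, Dhx58, Mavs, Zbp1, Tbk1, Ikbke, Traf3 and Trex1) out of 21080 genes in all, and every member was found in both tables and passed the filter on low coverage. RNA was sequenced from 8 samples, 2 in each of 4 groups: WT and Nudt21-cKO BMDMs at 0 h, and WT and Nudt21-cKO BMDMs at 4 h, which had IFNγ overnight and then LPS for the stated time. The cKO mice carried floxed Nudt21 alleles and a Cre driven by the LysM promoter, which is active in myeloid cells, and the WT controls were sex-matched littermates that carried the same Cre, so the Cre was shared by all 4 groups. All mice were C57BL/6, all cells were grown with M-CSF, the age of the mice is not given in the sources used here, and the BMDMs of 2 mice went into each sample. The labels name the stimulation for the 0 h samples too, and these were taken as unstimulated from their titles. The p-values below therefore rest on the spread between the 2 pooled samples of a group. That spread was estimated over all 4 groups together and moderated over all genes by limma. An exact two-sided permutation test of 2 against 2 samples cannot give a p below 0.333.

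Cells sense viral or misplaced nucleic acid in the cytosol through a small set of receptors. MDA5 (Ifih1) and LGP2 (Dhx58) are RNA helicases that bind double-stranded RNA, and ZBP1 binds nucleic acid in the Z form. MDA5 signals through the mitochondrial adaptor MAVS, which recruits TRAF3 and the kinases TBK1 and IKKε (Ikbke). These kinases phosphorylate IRF3 and IRF7, which switch on type I interferon, and TREX1 is a nuclease that removes cytosolic DNA before it is sensed. In macrophages most of the sensors are themselves interferon-stimulated genes. NUDT21, also called CFIm25, binds UGUA elements near poly(A) sites and takes part in the choice of the site at which a transcript is cleaved.

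The deposited value of a gene is its mean read coverage per base, a level per length, so levels of different genes can be set side by side within a sample. Summed coverage lay between 14950347 and 17954882 per sample, and the number of reads behind a value is not given in the tables. Nudt21 itself fell in both cKO groups, from 641 and 718 in WT BMDMs to 158 and 172 in cKO BMDMs at 0 h and from 547 and 575 to 115 and 142 at 4 h, with log2 fold changes of -2.13 and -2.49 (limma, Benjamini-Hochberg adjusted p = 0.00376 and 0.00236). The coverage was not scaled for depth, and at 4 h the median of the cKO samples was higher than that of the WT samples by 0.36 on the log2 scale. Each sample was therefore centred on its own median, and log2 fold changes below are on this centred scale unless they are named as deposited. At 4 h the 2 scales split the called genes differently, with 45.2% of them higher in cKO on the centred scale and 85.3% on the deposited scale. All 8 macrophage markers examined (among them Adgre1, Csf1r and Cd68) were detected in every group, and some of them differed between the genotypes in coverage, in both directions. At 0 h Adgre1 was at 20130 and 24460 in WT BMDMs against 13820 and 14290 in cKO BMDMs, Csf1r at 38700 and 44260 against 26250 and 30290, and Cd68 at 45500 and 42910 against 69410 and 73400. At 4 h Adgre1 was at 12400 and 13300 against 9642 and 8983, and Cd68 at 12360 and 13100 against 24830 and 28820. The sum of the 8 markers was 120530 to 129084 in WT and 123746 to 132928 in cKO at 0 h, and 64070 to 65060 in WT and 70588 to 75278 in cKO at 4 h. The summed coverage of 5 neutrophil markers was 18572 to 19494 in WT and 21167 to 28212 in cKO at 0 h, and 14919 to 17864 in WT and 17078 to 19867 in cKO at 4 h. It came mainly from S100a8 and S100a9. Elane was between 327 and 446 at 0 h and between 90.2 and 103 at 4 h. Mpo was between 215 and 294 at 0 h and between 76.4 and 120 at 4 h. The neutrophil marker Ly6g was between 0 and 7.37, and the part of these markers in the genotype differences below was not tested. The T and NK cell and B cell lists summed to at most 10.6 and 4.36. The list for dendritic cells reached 14.6 at 0 h, and at 4 h it was 29.5 to 67.2 in WT and 25.7 to 34.7 in cKO. The list for fibroblasts and stroma was 84.1 to 192 in WT and 146 to 210 in cKO at 0 h, and 51.0 to 129 in WT and 108 to 144 in cKO at 4 h. In bulk RNA, fewer cells of a type and less RNA per cell cannot be told apart.

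**Figure D1:**
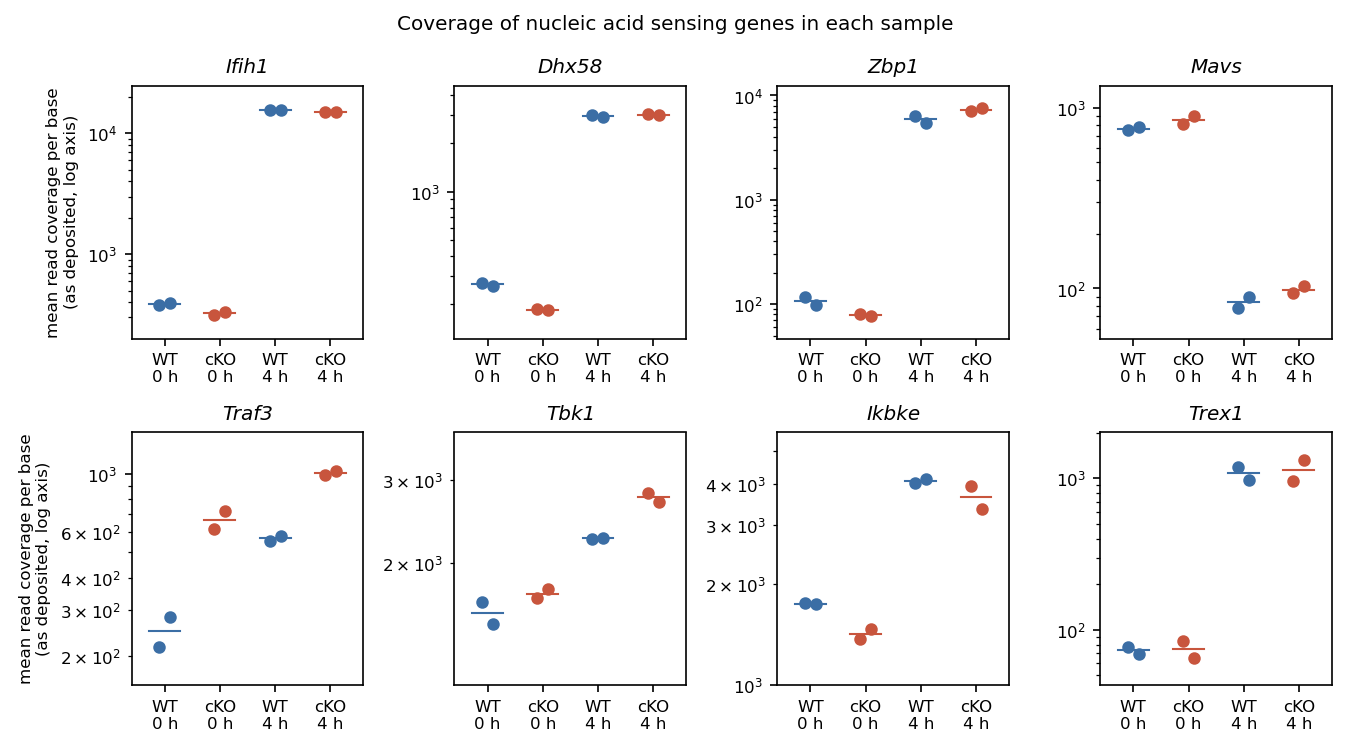
Mean read coverage per base (log axis, deposited scale) of the 8 genes in each of the 8 samples, with WT in blue and cKO in red, points for samples and lines for group means of 2. Ifih1, Dhx58, Zbp1 and Trex1 stood far higher at 4 h, Mavs stood lower at 4 h, and Traf3 was higher in cKO than in WT at both times on this scale.

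The 3 sensors rose with stimulation in both genotypes, and in the comparison between genotypes none had a limma adjusted p under 0.05 in the fit described first for each, while Ifih1 and Dhx58 were called in some other fits. Ifih1 lies on the minus strand at chr2:62595798-62646255 (GRCm38) and is protein coding with 17 merged exons. Its coverage was 383 and 392 in WT BMDMs against 317 and 334 in cKO BMDMs at 0 h, and 15587 and 15502 in WT BMDMs against 14922 and 15124 in cKO BMDMs at 4 h. The 4 unstimulated samples lay well under the 4 stimulated ones, and at each time both cKO samples lay below both WT samples. With stimulation Ifih1 rose by 6.79 on the log2 scale in WT (SE 0.11, 111-fold) and by 6.73 in cKO (106-fold), with limma Benjamini-Hochberg adjusted p-values of 1.20e-05 and 1.06e-05. The deposited scale gave smaller rises of 5.33 (40.1-fold) and 5.53 (46.2-fold). Between genotypes the difference was -0.35 at 0 h (adjusted p = 0.164) and -0.41 at 4 h (adjusted p = 0.0699, limma), and at 4 h it was -0.05 on the deposited scale. Without WT replicate 2 of 4 h the centred value at 4 h was -0.54 and was called (adjusted p = 0.0412, limma). With an intensity trend, in which limma lets the prior variance depend on the mean level, it was called at 4 h (0.0191), and after quantile normalization at 0 h (-0.42, 0.0358). At 4 h Ifih1 was at the 99.2th percentile of all tested genes in WT and at the 98.9th in cKO, against the 65.5th and 60.9th at 0 h.

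The promoters of the members were read from RefSeq (GRCm38.p6, 250 bases before to 50 after each start) because the sensors respond to interferon. Of the 8 members 6 matched, with 7 promoters. The sensors Dhx58 and Zbp1 had no match, and their promoters were not searched. In the others 3 motifs were searched on both strands: the interferon-stimulated response element ISRE (GAAA, any 2 bases and GAAA), the gamma-activated site GAS (TTC, any 3 bases and GAA) and the NF-κB site (GGGA, any 3 bases and TCC). Of the 7 promoters searched, that of Ifih1 alone held one of them, an ISRE, at chr2:62646214-62646223. It is shown within the 28 bases of chr2:62646206-62646233, printed 5′ to 3′ along the gene, which runs on the minus strand, with the motif in capitals.
Ifih1: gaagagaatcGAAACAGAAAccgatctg
The motif starts at base 33 of the transcript, counted along the gene. Of all 32851 promoters of this length 3.44% held an ISRE, 8.30% a GAS and 4.59% the NF-κB letters. The match is a description of the letters, and factor binding was not measured.

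Dhx58, which encodes LGP2, lies on the minus strand at chr11:100694884-100704271. Its coverage at 0 h was 273 and 261 in WT BMDMs against 187 and 184 in cKO BMDMs, and the groups did not overlap. At 4 h it was 3012 and 2933 in WT BMDMs against 3043 and 2987 in cKO BMDMs, and the genotypes overlapped on the deposited scale. The rise with stimulation was 4.94 in WT (30.8-fold) and 5.22 in cKO (37.4-fold), each called by limma with adjusted p-values of 1.76e-05 and 1.60e-05, and was 3.48 (11.1-fold) and 4.02 (16.2-fold) on the deposited scale. At 0 h the genotype difference was -0.62 (SE 0.13), 0.651-fold, with a limma adjusted p of 0.0642. On the deposited scale it was -0.53 and was called (adjusted p = 0.0401, limma), as it was on the centred scale without WT replicate 1 or 2 of 4 h (adjusted p = 0.0472 and 0.0466), with an intensity trend (0.0133), at equal summed coverage (0.0345) and after quantile normalization (0.0181). At 4 h the difference was -0.34 (adjusted p = 0.134) and took the other sign, 0.02, on the deposited scale. Of the exon bases of Dhx58, 4.31% are shared with the antisense gene Dhx58os, whose reads cannot be told apart with a library kit that does not mark strand.

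Zbp1, the sensor of Z-form nucleic acid that can also trigger necroptosis, lies on the minus strand at chr2:173206612-173218923. Its coverage was 118 and 98.5 in WT BMDMs against 80.3 and 76.9 in cKO BMDMs at 0 h, and 6369 and 5486 in WT BMDMs against 7116 and 7537 in cKO BMDMs at 4 h. The cKO samples were thus below the WT samples at 0 h and above them at 4 h on the deposited scale, while after centring the genotypes overlapped at 4 h. Zbp1 rose with stimulation by 7.24 in WT (152-fold) and by 7.74 in cKO (214-fold), against 5.78 (54.8-fold) and 6.54 (93.1-fold) on the deposited scale, and this was the highest fold of the 8 genes in each genotype on both scales. The genotype difference at 0 h was -0.55 with a limma adjusted p of 0.185, and at 4 h it was -0.05 (adjusted p = 0.892), the latter being 0.31 on the deposited scale (adjusted p = 0.175).

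Of the 2 adaptors, Traf3 stood higher in cKO and Mavs was the only member that fell with stimulation. Traf3, an E3 ubiquitin ligase that links MAVS to TBK1 and also restrains noncanonical NF-κB signalling, lies on the plus strand at chr12:111166370-111267153. Its coverage at 0 h was 218 and 283 in WT BMDMs against 612 and 717 in cKO BMDMs. At 4 h it was 553 and 577 in WT BMDMs against 992 and 1025 in cKO BMDMs. The genotypes did not overlap at either time, on either scale, and on the deposited scale the unstimulated cKO samples lay above the stimulated WT samples, while after centring they lay below them. At 0 h Traf3 was higher in cKO by 1.32 on the log2 scale (SE 0.16, 95% interval 0.91 to 1.74), or 2.50-fold, with a limma adjusted p of 0.0210. The deposited scale gave 1.42 (adjusted p = 0.0184). At 4 h the difference was 0.48 (SE 0.16), 1.39-fold, and was not called (limma adjusted p = 0.113), whereas on the deposited scale it was 0.84 and was called (adjusted p = 0.0255), as was the centred value with an intensity trend (0.0427). Stimulation raised Traf3 by 2.65 in WT and 1.81 in cKO, and by 1.19 and 0.61 on the deposited scale.

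The call for Traf3 at 0 h did not hold in every fit. Fitted on the 4 unstimulated samples alone, the value was 1.32 at an adjusted p of 0.104 (limma). It was 1.12 without WT replicate 1 of 0 h (adjusted p = 0.0531), 1.38 and 1.26 without cKO replicate 3 and 4 of 0 h (adjusted p = 0.0913 and 0.117), and 1.32 without cKO replicate 3 or 4 of 4 h (adjusted p = 0.0625 and 0.0624). The size of the difference thus lay between 1.12 and 1.52 whichever sample was left out.

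Traf3 had the longest annotated 3'UTR of the 8 genes, 5088 bases in its longest RefSeq-matched GENCODE M21 transcript, at the 96.9th percentile of 19278 genes, whose median was 848.5 bases. It held 19 copies of UGUA, the NUDT21 element, against a median of 4 over all genes, while per kilobase it held 3.73 against a median of 4.85. The copies in the last 100 bases before the annotated end are shown because NUDT21 binds such elements upstream of a cleavage site, with UGUA in capitals and printed 5′ to 3′ along the transcript (distances are from the U that opens the element, with the last base counted as 1), together with those of Dhx58, the sensor with the lowest cKO to WT fold at 0 h on the centred scale.
Traf3, 71 bases before the end: uaauaaaguuUGUAagacuguaga
Traf3, 63 bases before the end: uuuguaagacUGUAgaaugcagaa
Traf3, 46 bases before the end: ugcagaauuuUGUAaugcucaagu
Dhx58, 58 bases before the end: ccaagcaccuUGUAgguuuuguuu
Dhx58, 14 bases before the end: aaauuaaaggUGUAguagagaaua
Of the 8 members 5 held UGUA in this window (Ifih1, Dhx58, Zbp1, Traf3 and Tbk1), and 51.8% of all genes did. Tbk1 held 14.7 UGUA per kilobase in a 3'UTR of 682 bases, at the 97.1th percentile. The 3'UTR of Ikbke held 1 copy in 708 bases and that of Trex1 none in 44. The genotype differences of the members that held an element near the end ran from -0.62 for Dhx58 to 1.32 for Traf3 at 0 h. Which poly(A) site was used was not measured here. A mean over the annotated length can fall where less of the 3'UTR is kept, also at an equal number of transcripts. The part of this in the genotype differences was not tested.

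Mavs, the mitochondrial adaptor on which MDA5 signalling converges, lies on the plus strand at chr2:131234063-131248025. Its coverage at 0 h was 751 and 783 in WT BMDMs against 816 and 900 in cKO BMDMs, and at 4 h it was 77.6 and 90.1 in WT BMDMs against 94.2 and 103 in cKO BMDMs. All 4 stimulated samples lay below all 4 unstimulated ones. Mavs fell by 1.73 on the log2 scale in WT (SE 0.10, 0.302-fold) and fell by 1.92 in cKO (0.265-fold), with limma adjusted p-values of 0.000112 and 8.94e-05, and the deposited scale gave -3.20 and -3.12. The genotype difference was 0.07 at 0 h (limma adjusted p = 0.774). At 4 h it was -0.12 and took the other sign, 0.24, on the deposited scale, with adjusted p-values of 0.435 and 0.239.

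The 2 kinases were both present at high levels before stimulation, and Ikbke was called lower in cKO after stimulation on the centred scale. Tbk1 lies on the minus strand at chr10:121546455-121586787, and its coverage was 1659 and 1488 in WT BMDMs against 1687 and 1762 in cKO BMDMs at 0 h, and 2248 and 2264 in WT BMDMs against 2807 and 2696 in cKO BMDMs at 4 h. Ikbke lies on the minus strand at chr1:131254343-131279606, and its coverage was 1755 and 1744 in WT BMDMs against 1370 and 1472 in cKO BMDMs at 0 h, and 4018 and 4141 in WT BMDMs against 3926 and 3350 in cKO BMDMs at 4 h. Both cKO samples of Ikbke lay below both WT samples at each time on both scales, while after centring the genotypes overlapped for Tbk1 at each time. Ikbke was lower in cKO at 4 h on the centred scale, with a log2 fold change of -0.53 (SE 0.12, 95% interval -0.83 to -0.23; limma adjusted p = 0.0420). On the deposited scale this was -0.17 (adjusted p = 0.346). At 0 h the difference of Ikbke was -0.39 (adjusted p = 0.136, limma), and it was called with an intensity trend (0.0434) and, at -0.51, after quantile normalization (0.0443). Tbk1 differed by 0.04 at 0 h (adjusted p = 0.902) and by -0.07 at 4 h (adjusted p = 0.707), the latter being 0.29 on the deposited scale. With stimulation Tbk1 rose by 1.99 in WT and 1.88 in cKO, and Ikbke by 2.69 and 2.55, and on the deposited scale the rises were smaller, at 0.52 and 0.67 for Tbk1 and 1.22 and 1.35 for Ikbke. Of the exon bases of Ikbke, 1.76% and 0.721% are shared with the antisense genes Gm28914 and Gm28913.

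The call for Ikbke at 4 h was lost in most other fits. Its log2 fold change was -0.38 at equal summed coverage (adjusted p = 0.109), -0.35 after quantile normalization (0.0814), -0.51 in the stimulated samples alone (0.165) and -0.50 with no filter (0.102). Leaving out WT replicate 1 or 2 of 0 h gave adjusted p-values of 0.0710 and 0.0686, cKO replicate 3 or 4 of 0 h gave 0.0957 and 0.0964, WT replicate 1 of 4 h gave 0.105, and cKO replicate 3 or 4 of 4 h gave 0.0894 and 0.187, all by limma. The direction was the same in every one of these fits, with values between -0.63 and -0.43 when a sample was left out.

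Trex1, the exonuclease that degrades cytosolic DNA, lies on the minus strand at chr9:109057933-109059734. Its coverage was 77.6 and 69.2 in WT BMDMs against 84.9 and 65.4 in cKO BMDMs at 0 h, and 1186 and 975 in WT BMDMs against 954 and 1325 in cKO BMDMs at 4 h. The genotypes overlapped at both times, and every stimulated sample lay above every unstimulated one. Trex1 rose with stimulation by 5.34 in WT (SE 0.29, 40.5-fold) and by 5.12 in cKO (34.7-fold), with limma adjusted p-values of 9.88e-05 and 0.000124, and by 3.87 (14.7-fold) and 3.91 (15.1-fold) on the deposited scale. The genotype difference was -0.07 at 0 h and -0.30 at 4 h (limma adjusted p = 0.937 and 0.529), and took the other sign, 0.02 and 0.06, on the deposited scale. The value is uncertain, because all 1147 exon bases of Trex1 also lie in exons of Atrip, a DNA damage response gene on the same strand. The coverage listed for Atrip was 165 to 216 at 0 h and 75.3 to 90.0 at 4 h, so that it was lower in the stimulated samples in which Trex1 was higher.

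Between the genotypes, 1 of the 8 genes was called at 0 h (Traf3, higher), where 4.96% of all 16284 tested genes were called, and 1 of 8 at 4 h (Ikbke, lower), where 15.9% were. On the deposited scale 2 were called at 0 h (Traf3 higher and Dhx58 lower), against 5.08% of all genes, and 1 at 4 h (Traf3, higher), against 22.9%. By the rule of the study's methods, a fold change above 1.5 with an unadjusted p under 0.05, 2 genes were called at 0 h (Traf3 and Dhx58), against 12.6% of all genes, and 0 at 4 h, against 20.5%. By the same rule on the deposited scale, an alternative chosen after the values had been seen, Traf3 alone was called at 0 h, against 12.9% of all genes, and again alone at 4 h, against 25.1%. Without adjustment, 5 of 8 had a limma p under 0.05 at 0 h and 4 of 8 at 4 h, against 21.9% and 33.5% of all genes. The median log2 fold change of the 8 genes was -0.21 at 0 h and -0.21 at 4 h, where the median over all tested genes was -0.0043 and -0.08. On the deposited scale the medians of the 8 genes were -0.11 and 0.15, and those of all genes 0.09 and 0.28.

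**Figure D2:**
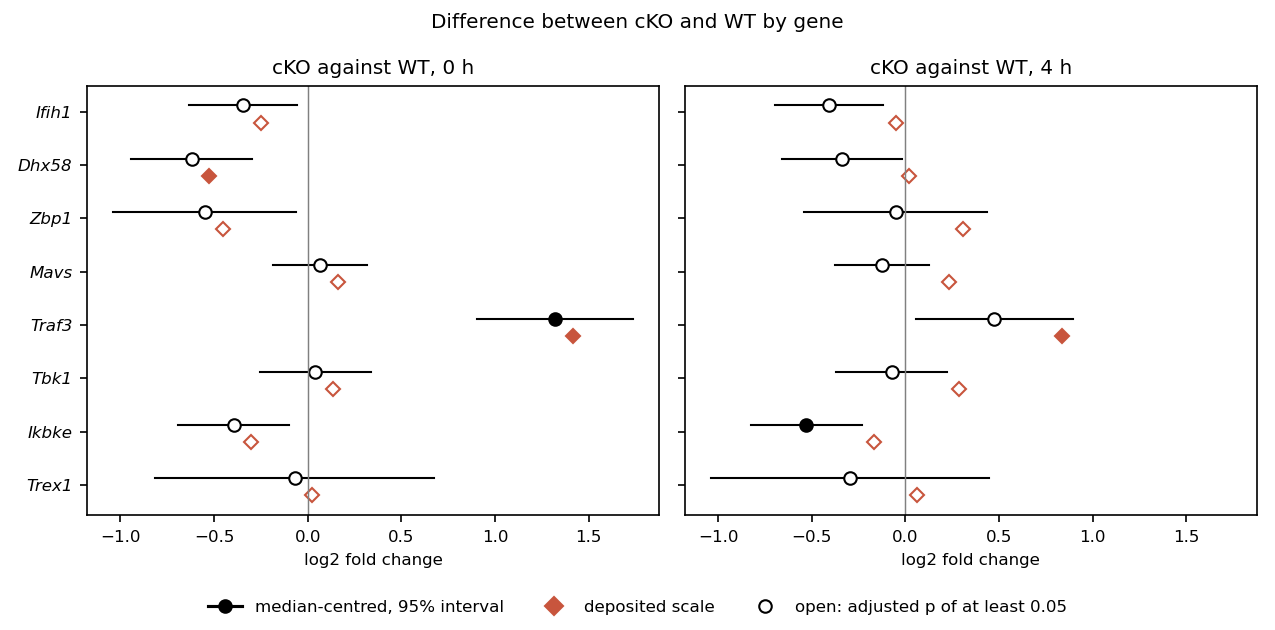
Log2 fold change between cKO and WT at 0 h (left) and 4 h (right), with circles and 95% intervals for median-centred samples, red diamonds for the deposited scale, and filled symbols for a limma adjusted p under 0.05. Traf3 is filled on both scales at 0 h, and at 4 h the diamonds sit to the right of the circles for every gene.

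Stimulation changed every member. All 8 genes were called in WT, where 60.2% of all tested genes were, and all 8 in cKO, where 58.6% were. In each genotype 7 rose (Ifih1, Dhx58, Zbp1, Traf3, Tbk1, Ikbke and Trex1), where 37.3% of all genes rose in WT and 35.5% in cKO, and Mavs alone fell, where 22.9% and 23.1% of all genes did. These directions and calls were the same on the deposited scale, where 71.1% of all genes were called in WT and 69% in cKO, but the shares by direction were not: there 12.9% of all genes rose and 58.2% fell in WT, and 14.5% rose and 54.5% fell in cKO. Most genes thus shared the direction of Mavs on the deposited scale. The median gene there was lower after stimulation by 1.24 in WT and 1.03 in cKO. Mavs itself changed by more on that scale, at -3.20 in WT and -3.12 in cKO. By the study's rule on that scale 7 of 8 were called in WT, against 68% of all genes, since Tbk1 rose there by 1.44-fold. On that scale the rises ran from 0.52 for Tbk1 to 5.78 for Zbp1 in WT, and from 0.61 for Traf3 to 6.54 for Zbp1 in cKO. The size of a centred value depends on the choice of reference genes, since among 10 classes of genes by coverage the deposited median in WT fell by 2.03 in class 3 and fell by 0.23 in the class with the highest coverage.

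**Figure D3:**
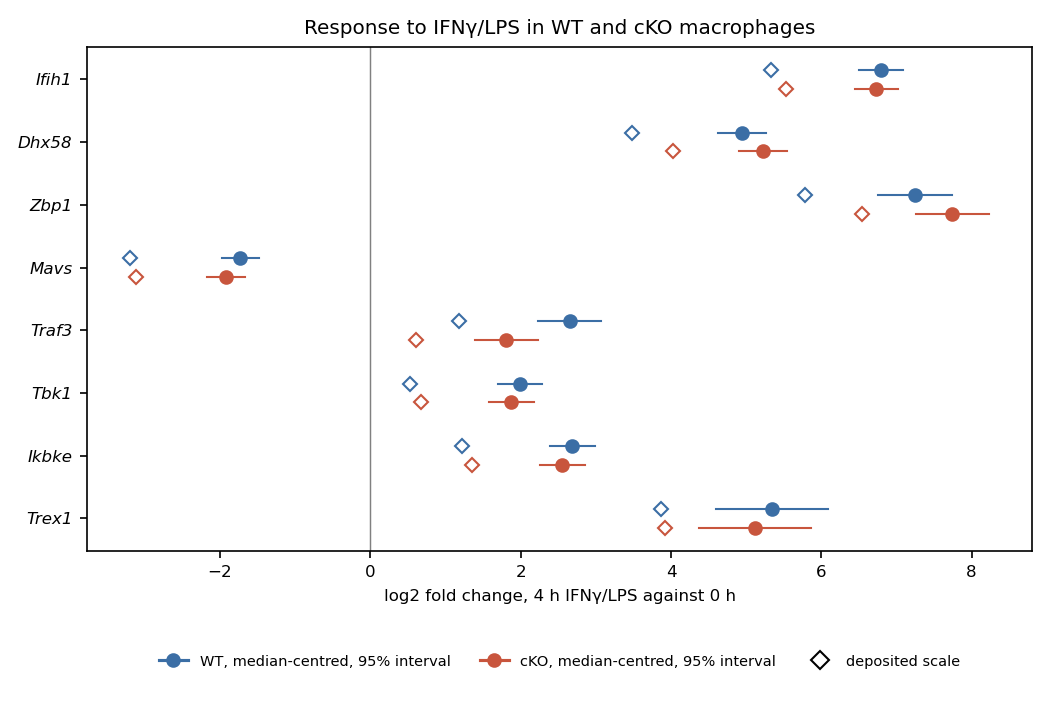
Log2 fold change of 4 h against 0 h in WT (blue) and cKO (red) for the 8 genes, with circles and 95% intervals for median-centred samples and open diamonds for the deposited scale. Mavs lies left of zero and the other 7 genes lie right of it in both genotypes and on both scales.

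The order of the genes changed with stimulation. In WT at 0 h the order of mean coverage was Ikbke (1749), Tbk1 (1573), Mavs (767), Ifih1 (387), Dhx58 (267), Traf3 (250), Zbp1 (108) and Trex1 (73.4), and Dhx58 and Traf3 did not differ beyond their spread. In cKO at 0 h Tbk1 (1724) was above Ikbke (1421), and Traf3 (665) was above Ifih1 (325), with no overlap in either pair. At 4 h the order was the same in WT and cKO, with Ifih1 highest (15545 and 15023), followed by Zbp1, Ikbke, Dhx58, Tbk1, Trex1, Traf3 and Mavs. In cKO at 4 h Trex1 and Traf3 overlapped. Mavs thus went from the third place at 0 h to the last at 4 h, at 83.9 in WT and 98.6 in cKO.

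The response to stimulation was set against the genotype in a test of the difference itself. None of the 8 genes was called by limma, against 2.12% of all genes, and 1 had an unadjusted p under 0.05, against 21.6% of all genes, as it did by the rule of the study's methods (16.3% of all genes). That gene was Traf3 on the centred scale, with a difference of -0.85 (SE 0.23, unadjusted p = 0.0140, limma adjusted p = 0.131, or 0.0455 with an intensity trend). The deposited scale gave -0.58 for Traf3 (adjusted p = 0.232), and there the study's rule called Zbp1, with a positive difference, and not Traf3 (17.5% of all genes). The differences of the other genes were 0.50 for Zbp1 (95% interval -0.19 to 1.19), 0.28 for Dhx58 (-0.17 to 0.73), -0.19 for Mavs (-0.54 to 0.17) and -0.06 for Ifih1 (-0.47 to 0.34). For Tbk1, Ikbke and Trex1 they were -0.11, -0.13 and -0.23. The sign turned to positive on the deposited scale for Ifih1, Mavs, Tbk1, Ikbke and Trex1. For Zbp1 the deposited scale gave 0.76 (adjusted p = 0.109) and for Dhx58 0.55 (adjusted p = 0.0867).

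Ratios between genes of a single sample do not depend on a factor that scales the whole sample, and 3 pairs were formed after the values had been seen. The ratio of Tbk1 to Ikbke was 0.945 and 0.853 in WT BMDMs against 1.23 and 1.20 in cKO BMDMs at 0 h, and 0.559 and 0.547 in WT BMDMs against 0.715 and 0.805 in cKO BMDMs at 4 h. Both cKO samples had a higher ratio than either WT sample at each time, and the ratio was lower after stimulation in each genotype. The ratio of Traf3 to Tbk1 was 0.131 and 0.190 in WT BMDMs against 0.363 and 0.407 in cKO BMDMs at 0 h, and 0.246 and 0.255 in WT BMDMs against 0.353 and 0.380 in cKO BMDMs at 4 h. It too was higher in both cKO samples at each time. In WT it was higher at 4 h than at 0 h, and in cKO the times overlapped. The ratio of the sensors Ifih1 to Dhx58 went from 1.40 and 1.499 in WT BMDMs against 1.69 and 1.82 in cKO BMDMs at 0 h to 5.17 and 5.29 in WT BMDMs against 4.90 and 5.06 in cKO BMDMs at 4 h. The cKO samples were thus above WT at 0 h and below WT at 4 h in this ratio.

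**Figure D4:**
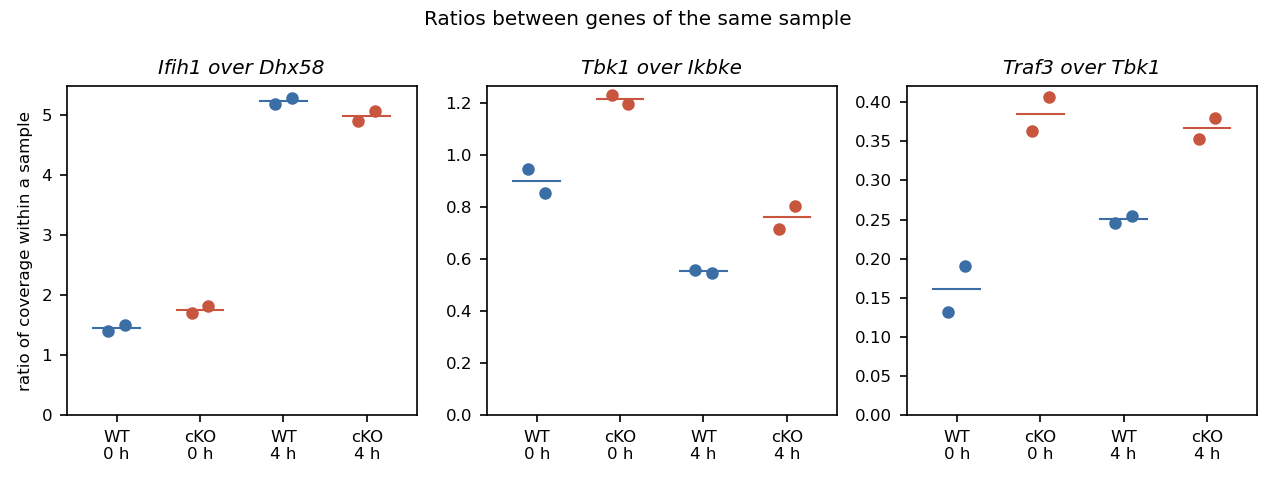
Ratio of coverage between 2 genes within each sample (linear axis from 0), with points for samples and lines for group means of 2. Tbk1 over Ikbke and Traf3 over Tbk1 are higher in cKO at both times, and Ifih1 over Dhx58 is above 4.9 in every stimulated sample and at most 1.82 in every unstimulated one.

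The patterns of the members were compared over the 8 samples. Ifih1, Dhx58, Zbp1, Tbk1, Ikbke and Trex1 correlated with each other at a Pearson r of 0.985 or more, Traf3 correlated with these at 0.836 to 0.907, and Mavs ran against all of them at -0.901 to -0.996. These values describe 8 samples that share the stimulation, and no p is attached. The tested genes whose pattern was most like that of a member, among 12023 with a mean coverage of at least 10, were Etv6 and Ifi205 for Ifih1, Ifi209 and Oas1g for Dhx58, and Pnp and Tubb6 for Zbp1. They were Vps54 and Xaf1 for Tbk1, Nudt9 and Ifi27l2a for Ikbke, Slc38a6 and Rnaset2b for Trex1, Usp48 and Cd209a for Mavs, and Zdhhc21 and Fxr1 for Traf3. The r of these pairs was between 0.998 and 0.9998, and since the 100th best gene still reached 0.982 to 0.999, the nearest genes were hardly set off from many others.

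The other genes of the pathway were counted in a list of 91 symbols in 8 role groups, of which 89 were found and tested. At 0 h 2 of 89 were higher in cKO and 2 lower, or 2.25% each, where 2.79% and 2.17% of all genes were. The 2 higher ones were Trim25 and Ifnb1, and Ifnb1 was listed at 0 in both WT samples of 0 h, so that its call there is set by the pseudocount. With the deposited scaling 6 were higher and 2 lower at 0 h, where 3.42% and 1.66% of all genes were, and after quantile normalization 6 and 7, where the calls over all genes went from 808 to 1475. At 4 h 4 were higher (4.49%, against 7.2% of all genes) and 10 lower (11.2%, against 8.71%). On the deposited scale limma called 22 higher and 0 lower there, where 19.6% and 3.38% of all genes were. The balance of directions at 4 h thus depended on the scaling. With only the groups compared 0 were higher and 0 lower at both times, so none of the calls named below held there. Over all genes that fit called 176 at 0 h and 236 at 4 h. With an intensity trend 10 were higher and 9 lower at 0 h, and 10 and 21 at 4 h. Over all genes it called 1706 and 3909. With 1 sample left out the list had 0 to 3 genes higher and 0 to 1 lower at 0 h and 0 to 3 higher and 0 to 8 lower at 4 h, where it had 0 in either direction without cKO replicate 4 of 4 h. The calls over all genes moved too, to between 253 and 834 at 0 h and between 446 and 2330 at 4 h. With stimulation 68 rose (76.4%) and 8 fell (8.99%) in each genotype, where 37.3% of all genes rose and 22.9% fell in WT and 35.5% rose and 23.1% fell in cKO. On the deposited scale 45 rose and 30 fell in WT, where 12.9% and 58.2% of all genes did, and 46 rose and 31 fell in cKO, where 14.5% and 54.5% did. In the difference between the times none was called by limma, against 2.12% of all genes, and 22 of 89 had an unadjusted p under 0.05, a share near the 21.6% of all genes.

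Among the 11 RNA sensors, Ddx60, a helicase cofactor of RIG-I signalling, was higher in cKO at 4 h (641 and 756 in WT BMDMs against 1400 and 1466 in cKO BMDMs), by 0.68 on the log2 scale with a limma adjusted p of 0.0338. Of the 10 RNA sensing cofactors and helicases, Trim25, the ubiquitin ligase of RIG-I, was higher in cKO at both times, by 0.68 at 0 h and 0.69 at 4 h (limma adjusted p = 0.0417 and 0.0214), and was called on the deposited scale at both times. Its coverage was 1485 and 1497 in WT BMDMs against 2506 and 2599 in cKO BMDMs at 0 h. Tkfc (-0.87), Dhx36 (-0.53), Dhx9 (-0.52) and Ddx3x (-0.45) were lower at 4 h on the centred scale and not called on the deposited scale.

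Among the 11 DNA sensors and cGAMP signalling genes, 4 were lower in cKO at 4 h (36.4%, against 8.71% of all genes), and none of these was called on the deposited scale. Tmem173, which encodes STING, was at -0.96 (limma adjusted p = 0.0213), with 1228 and 1879 in WT BMDMs against 931 and 1084 in cKO BMDMs. Lrrfip1 was at -0.75, the inflammasome sensor Aim2 at -0.73 and the RNA polymerase III subunit Polr3c at -0.46. Of the 14 adaptors and scaffolds, Ikbkg, which encodes NEMO and bridges MAVS to the IKK kinases, was higher at 4 h by 1.12 (SE 0.12, limma adjusted p = 0.0103), with 218 and 232 in WT BMDMs against 614 and 641 in cKO BMDMs. Chuk, which encodes IKKα, was at -0.63 and was not called on the deposited scale (-0.27). Among the 6 partners of ZBP1 in cell death, Fadd was higher at 4 h (0.51) and Ripk3, the necroptosis kinase that ZBP1 binds, was lower (-0.55, and -0.19 without a call on the deposited scale). Ddx60, Trim25, Ikbkg and Fadd were called higher at 4 h on the deposited scale too.

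Of the 17 negative regulators, Nlrx1, a mitochondrial protein known as a regulator of MAVS signalling, was lower in cKO at 0 h by a log2 fold change of -0.89 (limma adjusted p = 0.0292), with 260 and 292 in WT BMDMs against 154 and 163 in cKO BMDMs, and on the deposited scale at -0.80 it was not called (0.0756). Among the 11 transcription factors and targets that were found, Cxcl10, a chemokine that interferon induces, was lower in cKO at 0 h (19.8 and 33.0 in WT BMDMs against 5.88 and 8.30 in cKO BMDMs, log2 fold change -1.95, limma adjusted p = 0.0317). Ifnb1, the gene of interferon-β, was listed at 0 in both WT samples and at 0.587 and 1.20 in cKO BMDMs at 0 h, and since it passed the filter through its 4 h values, nothing is read from its test at 0 h. After stimulation Ifnb1 was at 1631 and 1403 in WT BMDMs against 3852 and 4851 in cKO BMDMs, a difference of 1.15 (limma adjusted p = 0.0729) that was 1.51 and was called on the deposited scale (adjusted p = 0.0321). None of the 9 nucleases and RNA editing genes was called by limma at either time, and 3 of them had an unadjusted p under 0.05 at each time, where 21.9% of all genes did at 0 h and 33.5% at 4 h. Rnaseh2b was called higher in cKO on the deposited scale at 0 h (limma adjusted p = 0.0353), where 3.42% of all genes were, and Rnaseh2b and Rnaseh2c at 4 h (0.0221 and 0.0164), where 19.6% were. The remaining subunit of ribonuclease H2, Rnaseh2a, was at -0.03 and -0.07 on that scale. These subunits were named after their values had been seen.

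**Figure D5:**
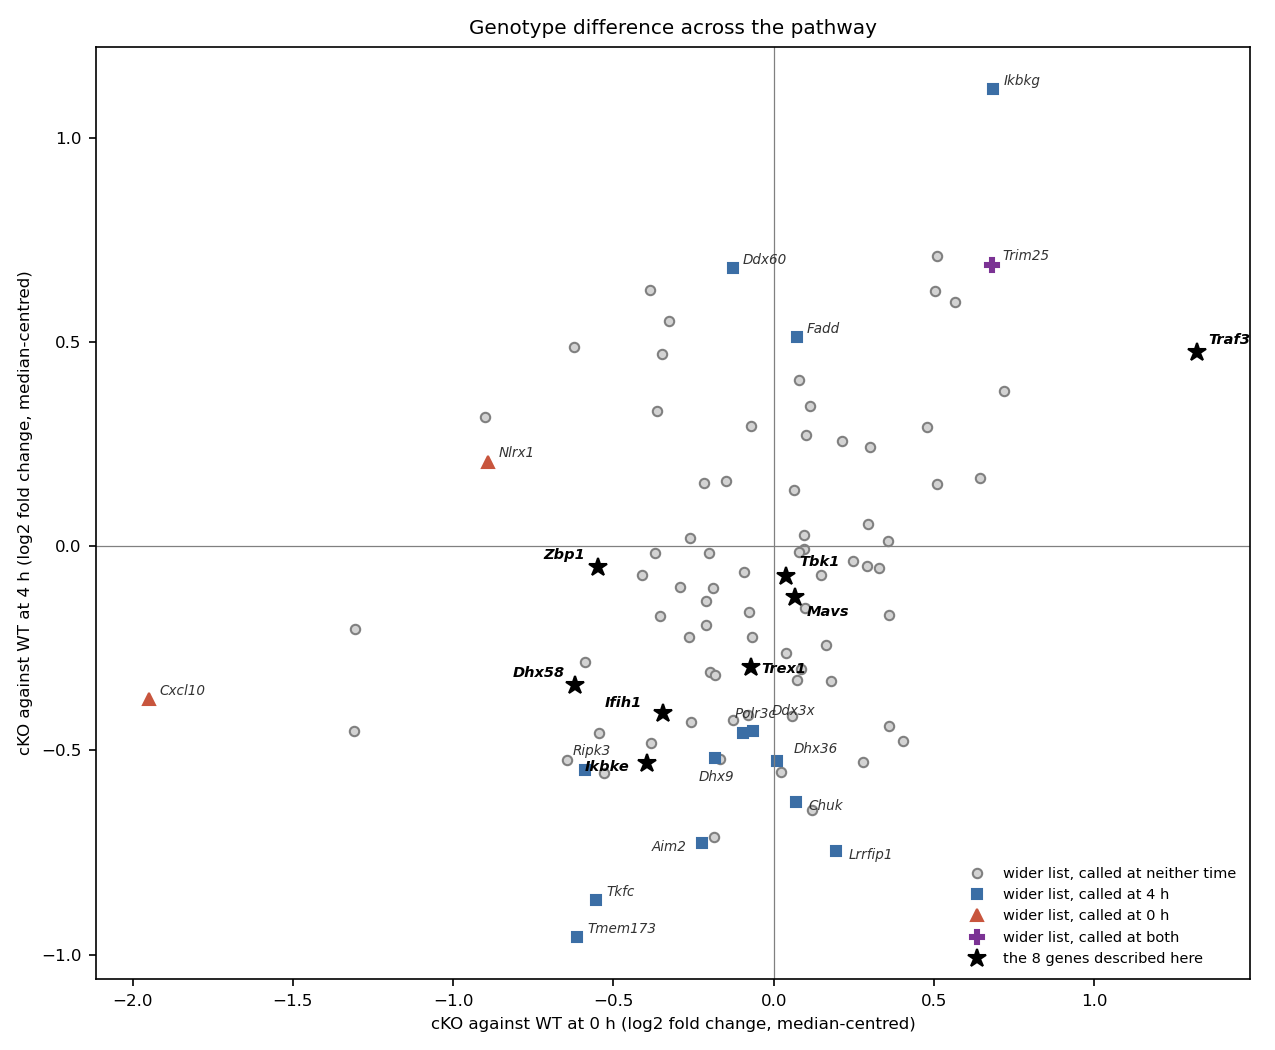
Log2 fold change between cKO and WT at 0 h (horizontal) and at 4 h (vertical), median-centred, for 87 genes of the wider list (Ifnb1 and Trim38, listed at 0 in a whole group, are left out) and the 8 genes described here (stars). Traf3 lies furthest right at 1.32, Ikbkg highest at 1.12 on the vertical axis, and Trim25 is the cross.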

How the data were processed

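The deposited tables, 1 for each time, gave a coverage signal per gene and sample that the authors made by aligning reads to mm10 (GRCm38) with HISAT2 2.2.1 and quantifying RefSeq genes with StringTie 2.1.7 (the submitters' processing notes). The tables do not name the unit, which was read from the values as mean read coverage per base, not scaled for depth. They also hold the authors' fold changes and p-values, which were not used, and 0 columns of per-sample values were left out. Groups came from the sample titles.

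Fits used limma 3.58.1 (R 4.3.3). Values were log2(coverage + 0.1), a scale that understates changes of low genes, with each sample centred on its median. Genes needed a mean coverage of at least 0.5 over the 8 samples (16284 of 21080). All 4 groups shared 1 fit, p-values were adjusted by Benjamini-Hochberg over all tested genes, and genes with an adjusted p under 0.05 were called. The rule in the study's methods (fold change above 1.5 with p under 0.05) was an alternative, as were other scalings, pseudocounts, filters and sample sets. On simulated coverage at least 97.8% of genes changed by a log2 of 1 or 2 were called between genotypes at 4 h, over 15423 genes. The simulation gave every gene the same spread between replicates. This share therefore does not hold for genes whose replicates differ more. The named genes were the 8 members, Nudt21, up to 4 called genes per role group of the wider list at each time (Ddx3x was added after its values were seen), and the 2 genes most like each member. The wider list of pathway genes leaves out 1 gene, which is not reported here. The members and gene lists were chosen with earlier results of these data known. Positions, 3'UTRs and overlaps came from GENCODE M21 (all 8 members matched), promoters from RefSeq, and plots were drawn with matplotlib 3.10.9. No read counts were given, so no counting interval was computed.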

Additional observations from a re-analysis of the deposited data

How the results depend on the processing

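Every member kept its direction in the response to stimulation, in WT and in cKO, under all alternatives run, and its call under all but 1. The exception was Tbk1 in WT, which fell short of the study's rule on the deposited scale (chosen after seeing the data), so that 7 of 8 were called there. The comparisons between genotypes depended on the fit. The count of members called at 0 h was 2 on the deposited scale, at equal summed coverage, under the study's rule and when samples were centred on the 25% of genes with the highest coverage (an alternative chosen after seeing the data), 4 after quantile normalization, 3 with an intensity trend and 0 with only the groups compared. At 4 h it was 3 with an intensity trend and 0 at equal summed coverage, after quantile normalization, with no filter, with only the groups compared, under the study's rule and with centring on the top 25%. For the difference between the times it was 1 with an intensity trend and 1 under the study's rule on either scale. Leaving out 1 sample gave 0 to 2 members at 0 h and 0 to 2 at 4 h.

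Over all genes, the calls at 0 h (808) became 1475 after quantile normalization, 1706 with an intensity trend and 176 with only the groups compared. They became 2052 under the study's rule (2103 on the deposited scale). The deposited scale with adjusted p-values gave 827, equal summed coverage 724 and top-25% centring 949. At 4 h (2591) the calls became 1629 with no filter, 3909 with an intensity trend and 236 with only the groups compared. The study's rule gave 3338, and 4089 on the deposited scale. The deposited scale with adjusted p-values gave 3736, equal summed coverage 2233, quantile normalization 2201 and top-25% centring 2815. For the difference (346) the calls became 1157 with an intensity trend, 537 with top-25% centring and 2657 under the study's rule (2851 on the deposited scale). Leaving out 1 sample gave 253 to 834, 446 to 2330 and 165 to 490.

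The replicate numbers recur at both times, but same-numbered samples deviated together at an r of only 0.0204 (WT) and 0.0237 (cKO), and whether a number marks cells of the same mice at both times is not given in the sources used here. With the replicate block 0 genes were called in the difference, and no count of members changed by it. The cause was not tested for any of these changes.

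The sign of small genotype differences turned with the scaling. On the deposited scale it turned for Trex1 at 0 h (0.0241), for Dhx58 (0.0206), Zbp1 (0.309), Mavs (0.236), Tbk1 (0.286) and Trex1 (0.0643) at 4 h, and for Ifih1 (0.202), Mavs (0.0759), Tbk1 (0.152), Ikbke (0.131) and Trex1 (0.0402) in the difference. At equal summed coverage it turned for Zbp1 (0.0977), Mavs (0.0243) and Tbk1 (0.0749) at 4 h and for Ifih1 (0.113), Tbk1 (0.0633) and Ikbke (0.0418) in the difference. After quantile normalization it turned for Zbp1 (0.0971) and Tbk1 (0.0144) at 4 h and for Ifih1 (0.0923), Tbk1 (0.00783) and Ikbke (0.161) in the difference. With top-25% centring it turned for Zbp1 (0.0468) and Tbk1 (0.0239) at 4 h and for Ifih1 (0.0616) and Tbk1 (0.0116) in the difference. Leaving out 1 sample gave -0.0302 to 0.108 for Tbk1 and -0.312 to 0.169 for Trex1 at 0 h, -0.282 to 0.180 for Zbp1 and -0.192 to 0.0445 for Tbk1 at 4 h, and -0.190 to 0.0594 for Ifih1, -0.231 to 0.000286 for Tbk1 and -0.489 to 0.0344 for Trex1 in the difference.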
